A study of Mus musculus with 10 samples.

Results

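BMP ligands and their secreted antagonists were examined in ChIP-seq site lists from mouse ESCs, a pluripotent cell type grown from the early embryo. The genes were 5 ligands (Bmp2, Bmp4, Bmp6, Bmp7 and Gdf6) and 3 antagonists (Nog, Chrd and Grem1), which are 8 of the 22380 protein-coding genes of the GENCODE vM1 annotation. Each gene was taken at its mm9 position with 5 kb on each side, and every deposited site that shared at least 1 base with that window was assigned to it.

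ChIP-seq, which sequences the DNA recovered with an antibody, was performed on Suz12, on Pcl3 and on H3K27me3, in 6 ChIP and 4 input DNA libraries. The Suz12 and H3K27me3 libraries came from the gene trap line XG122 with the genotype Suz12 Suz12TAP/+, in which 1 allele of Suz12 carries the TAP tag and is recovered with the FlagM2 antibody, and these cells expressed either Pcl3 shRNA or scramble shRNA. The Pcl3 libraries came from E14 ESCs that expressed Pcl3-TAP together with an shRNA against wild type Pcl3, shRNA6 in one population and shRNA7 in the other, and were also made with FlagM2. H3K27me3 was recovered with an antibody against the modified histone. Each condition had 1 library, and 1 Pcl3 list was given for the 2 Pcl3-TAP libraries without a statement of whether both entered it, so no comparison had replicates and no test over samples could be made. The Pcl3-TAP cells were a different line from the Suz12-TAP cells, and their tagged Pcl3 came from an introduced construct that the shRNAs do not recognize.

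The authors deposited 4 lists of sites, each with 1 p-value per site. The Suz12 list held 8876 sites bound in scramble cells over input, and the Suz12-depleted list held 5722 sites that had less Suz12 in Pcl3 shRNA cells. The Pcl3 list held 5242 sites and the H3K27me3-depleted list held 678 sites that had less H3K27me3 in Pcl3 shRNA cells. All 5722 Suz12-depleted sites carried the position and p-value of a Suz12 site, so this list says which sites had less Suz12 but not by how much. The paper also reports lower Suz12 mRNA and protein in Pcl3 shRNA cells, and says that this may account for part of the lower binding. Its part at single sites was not tested here. In the paper, the Suz12-TAP cells had moderately more Suz12 mRNA and protein than wild type cells. It says that the less significant Suz12 sites not reported before may be weak binding or an artifact of that increase. The lists hold no read counts. Their depth is therefore unknown here, no value per library could be given, and neither the knockdown of Pcl3 nor the identity of the cells could be checked from them.

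BMPs are secreted growth factors of the TGF-beta superfamily that bind pairs of serine/threonine kinase receptors, which phosphorylate Smad proteins that then enter the nucleus with Smad4 and regulate genes such as the Id family. Secreted antagonists bind BMPs outside the cell and keep them from their receptors. In mouse ESCs, BMP signaling acts with LIF to maintain self-renewal, and in the embryo it patterns the dorsal-ventral axis, the mesoderm and the skeleton. PRC2, of which Suz12 is a core subunit and Pcl3 (Phf19) an associated protein, trimethylates histone H3 at lysine 27, a mark found over the CpG-rich starts of many developmental regulators in ESCs.

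All 8 genes had Suz12, Suz12-depleted and Pcl3 sites, and 2 of the 8, Gdf6 and Nog, also had an H3K27me3-depleted site. Of all protein-coding genes, 28.8% had a Suz12 site, 20.6% a Suz12-depleted site, 14.7% a Pcl3 site and 3.13% an H3K27me3-depleted site. The 8 genes were chosen with earlier results of these data known, so their counts beside these shares are a description and not a test. The window sizes of the genes ranged from 11922 bp at Nog to 165189 bp at Bmp6, beside a median of 25420 bp over all protein-coding genes. The combination of Bmp2, Bmp4, Bmp6, Bmp7, Chrd and Grem1, with the first 3 lists and not the last, was shared by 2370 protein-coding genes (10.6%). The combination of Gdf6 and Nog, with all 4 lists, was shared by 500 genes (2.23%), and 15693 genes (70.1%) had a site of none of the lists.

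**Figure D1:**
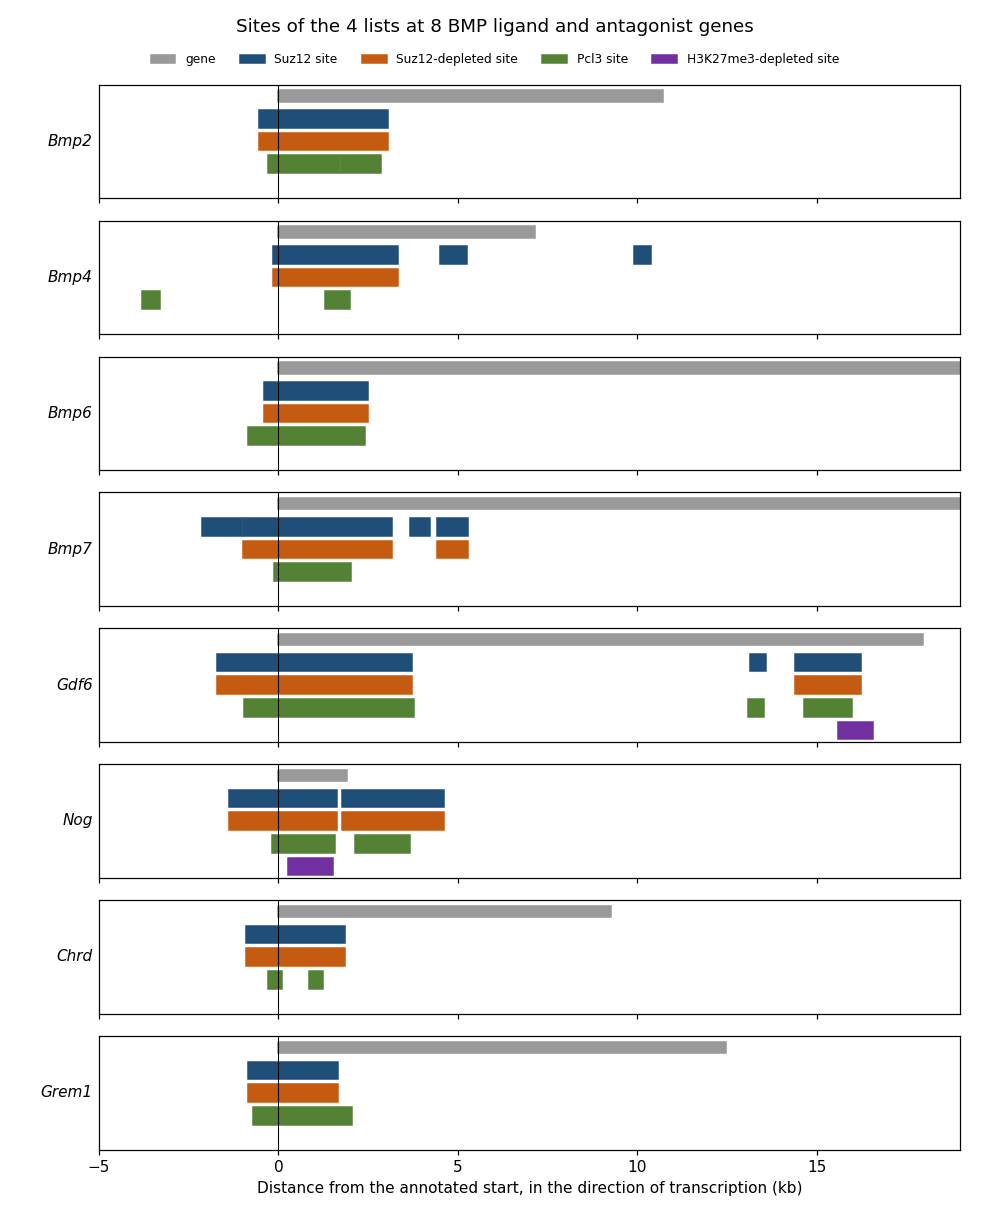
Sites of the 4 lists at the 8 genes, drawn to scale as the distance from the annotated start in kb in the direction of transcription, with the gene as a gray bar (cut at the right edge for Bmp6 and Bmp7). A Suz12 site that is also in the depleted list covers every start, and H3K27me3-depleted sites (purple) are present at Gdf6, near the end of the gene, and at Nog.

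The 200 bases upstream of the start of 4 of the genes are shown because the starts carried the strongest Suz12 site of every gene and differed widely in CpG content. They are read 5′ to 3′ on the strand of the gene from mm9, with each CpG in capitals.
Bmp2 upstream, chr2:133377695-133377894, plus strand: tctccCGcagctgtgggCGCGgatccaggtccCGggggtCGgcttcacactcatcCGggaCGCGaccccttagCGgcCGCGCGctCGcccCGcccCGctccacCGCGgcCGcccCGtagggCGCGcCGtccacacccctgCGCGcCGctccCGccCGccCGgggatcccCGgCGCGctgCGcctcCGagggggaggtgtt
Bmp6 upstream, chr13:38436795-38436994, plus strand: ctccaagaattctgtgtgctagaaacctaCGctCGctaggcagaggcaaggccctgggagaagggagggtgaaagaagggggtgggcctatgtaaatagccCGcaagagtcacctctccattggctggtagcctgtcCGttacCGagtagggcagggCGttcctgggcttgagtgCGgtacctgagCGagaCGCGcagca
Chrd upstream, chr16:20733000-20733199, plus strand: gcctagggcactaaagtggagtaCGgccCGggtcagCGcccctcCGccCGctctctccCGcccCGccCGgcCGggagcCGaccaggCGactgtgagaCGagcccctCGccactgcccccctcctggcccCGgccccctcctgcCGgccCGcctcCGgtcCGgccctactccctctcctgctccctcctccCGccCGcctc
Grem1 upstream, chr2:113598804-113599003, minus strand: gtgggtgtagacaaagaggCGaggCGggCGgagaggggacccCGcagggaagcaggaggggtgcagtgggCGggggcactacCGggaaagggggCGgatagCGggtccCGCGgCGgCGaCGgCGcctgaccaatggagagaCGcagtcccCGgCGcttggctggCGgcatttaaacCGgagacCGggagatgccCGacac
Bmp2 had 33 CpG in these bases, and 311 of 22375 protein-coding starts had more. The 200 bases held 21 CpG at Grem1, 20 at Chrd, 18 at Bmp7, 16 at Nog, 12 at Gdf6, 11 at Bmp4 and 10 at Bmp6. The median was 12 for starts of genes with a Suz12 site and 5.00 for starts of genes without one, so Bmp6 and Bmp4 lay just below the first and Bmp2 well above it. The word GCGCGC, which reads the same on both strands and contains GCGC, was present in the 200 bases of Bmp2 alone among the 8 genes, at 4 positions that may overlap, and in those of 12.2% of all protein-coding genes.

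The 8 genes held 16 Suz12 sites, and the strongest at each gene covered the annotated start. A Suz12 site covered the start of 4078 protein-coding genes, which are 18.2% of all of them. They are the larger part of the 6442 genes that had a Suz12 site at all. At Bmp2, Bmp6, Bmp7, Gdf6 and Nog the p-value of this site was too small for the number format and is written as 0, as it was for the strongest site of 468 protein-coding genes. These 5 genes cannot be ordered by p-value. Grem1 followed with 4.866e-295, then Chrd with 3.527e-146 and Bmp4 with 1.148e-139. Of the 6442 protein-coding genes with a Suz12 site, 7.65% had a stronger site than Grem1, 17.0% a stronger one than Chrd and 18.0% a stronger one than Bmp4.

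**Figure D2:**
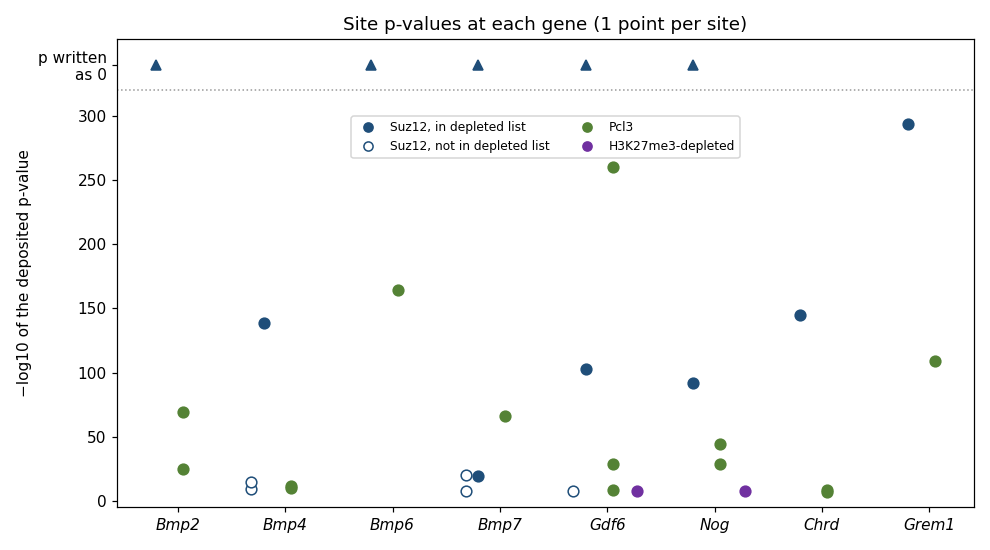
The −log10 of the deposited p-value of each Suz12, Pcl3 and H3K27me3-depleted site at the 8 genes, 1 point per site, with triangles above the dotted line for p-values written as 0 and open circles (drawn slightly to the left) for Suz12 sites outside the depleted list. Bmp2, Bmp6, Bmp7, Gdf6 and Nog each have 1 Suz12 site above the line, and all 5 open circles lie below 20.

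Bmp2 and Bmp4 encode closely related ligands, of which Bmp2 is best known for bone and heart development and Bmp4 for mesoderm and for the support of ESC self-renewal. Bmp2 (ENSMUSG00000027358.6) lies on the plus strand at chr2:133377895-133388621 and had a single Suz12 site of 3600 bp at chr2:133377351-133380950, with 544 bp upstream of the gene, 1513 bp in introns and 343 bp of coding sequence. The site was in the depleted list. It held 2 Pcl3 sites, of 2000 bp (p-value 6.106e-70) over the start and of 1100 bp (p-value 6.458e-26) behind it, which together covered 86.1% of the Suz12 bases. The nearest H3K27me3-depleted site was 1990145 bp from the start.

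Bmp4 (ENSMUSG00000021835.8) lies on the minus strand at chr14:47003195-47010344 and had 3 Suz12 sites. The site over the start, chr14:47007001-47010500, was 3500 bp wide, lay mostly in an intron (2978 bp) and was in the depleted list. The other sites were weak and outside that list. The first, chr14:47005101-47005850 (p-value 7.669e-16), covered 373 bp of coding sequence, and the second, chr14:46999951-47000450 (p-value 3.670e-10), lay 2745 bp past the end of the gene. All 3 sites were also within 5 kb of another protein-coding gene, Gm15217. Pcl3 was narrow and weak here. A Pcl3 site of 700 bp (p-value 1.371e-12) lay within the Suz12 site of the start, in the intron and not over the start itself, and 14.7% of the Suz12 bases of Bmp4 were in a Pcl3 site. A second Pcl3 site at chr14:47013651-47014150 (p-value 1.328e-10), 3307 bp upstream of the gene, shared no base with a Suz12 site. It was the sole one of the 14 Pcl3 sites at the 8 genes that did not.

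Bmp6 and Bmp7 belong to a second subgroup of ligands. Bmp6 controls iron balance through the liver hormone hepcidin, and Bmp7 is required for kidney and eye development. Bmp6 (ENSMUSG00000039004.4), at chr13:38436995-38592183 on the plus strand, is the longest of the 8 genes (155189 bp), and Suz12 covered 1.61% of it. Its 1 Suz12 site, chr13:38436601-38439500, held 655 bp of coding sequence, was 2900 bp wide and was in the depleted list. A Pcl3 site of 3250 bp (p-value 9.815e-165) was wider than the Suz12 site and overlapped 96.6% of it, the highest share of the 8 genes.

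Bmp7 (ENSMUSG00000008999.7) lies on the minus strand at chr2:172693513-172765822 and had 4 Suz12 sites, the most of the 8 genes. The site over the start, chr2:172762651-172766800, was 4150 bp wide, with rank 299 in width among the 8876 Suz12 sites, and was in the depleted list together with a site of 850 bp in an intron, chr2:172760551-172761400 (p-value 3.770e-20). A site directly upstream of the first, chr2:172766851-172767950, was 1100 bp wide and had nearly the same p-value as the intronic one, 1.191e-20, but was outside the depleted list. The narrowest, 550 bp in an intron (p-value 2.159e-08), was also outside it. Pcl3 was found at the start alone, in a site of 2150 bp (p-value 7.069e-67), and 32.3% of the Suz12 bases of Bmp7 were in it. Of the Suz12 sites at Bmp7, 2 were thus in the depleted list and 2 were not, and those not in it lay on either side of the strong site.

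Gdf6, a ligand of joints, the skull and the eye, was the gene with the most Suz12 and Pcl3. Gdf6 (ENSMUSG00000051279.2) has 2 exons and lies on the plus strand at chr4:9771519-9789492. The Suz12 site over its start, chr4:9769801-9775250, was 5450 bp wide, with rank 137 in width among the 8876 Suz12 sites. The Pcl3 site there was 4750 bp wide with a p-value of 4.525e-261, the smallest of the 14 Pcl3 sites and rank 246 among 5242. A second pair of sites lay toward the 3′ end of the gene, within it. The Suz12 site chr4:9785901-9787750 (p-value 4.293e-104) was in the depleted list and covered 947 bp of coding sequence, and a Pcl3 site of 1350 bp (p-value 5.846e-30) lay within it. A further pair lay in the intron, with a Suz12 site of 450 bp (p-value 1.739e-08) and a Pcl3 site of 450 bp (p-value 4.635e-09), and this Suz12 site was outside the depleted list. It was the sole one of the 5 Suz12 sites outside the depleted list that had a Pcl3 site.

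The H3K27me3-depleted site of Gdf6 lay at this second pair of sites and not at the start. It covered chr4:9787101-9788100, from 15582 to 16581 bp downstream of the start, with 328 bp of coding sequence and 672 bp of untranslated exon. Its p-value of 2.811e-08 gave it rank 470 of the 678 sites of that list. Of its 1000 bp, 650 bp were shared with the second Suz12 site and 400 bp with the Pcl3 site inside that. The site of the start, with the widest Suz12 site of the 8 genes, had no H3K27me3-depleted site.

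Nog encodes Noggin, which binds BMPs directly, blocks both receptor-binding faces and is secreted by the node and notochord. Nog (ENSMUSG00000048616.3) is a gene of 1 exon on the minus strand at chr11:89161952-89163873, and with 1922 bp it is the shortest of the 8 genes. Suz12 sites covered 92.2% of it. The site over the start, chr11:89162251-89165250, was 3000 bp wide and held 696 bp of coding sequence. A Pcl3 site of 1750 bp (p-value 4.769e-45) over the start held the same 696 bp. The second, chr11:89159251-89162100 (p-value 5.247e-93), was 2850 bp wide, lay mostly beyond the end of the gene (2701 bp) and held a Pcl3 site of 1550 bp (p-value 6.106e-30). Both Suz12 sites were in the depleted list. The H3K27me3-depleted site, chr11:89162351-89163600 (p-value 1.072e-08, rank 398 of 678), was 1250 bp wide, began 273 bp downstream of the start and lay wholly within both the Suz12 and the Pcl3 site.

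Nog lies on chromosome 11, where H3K27me3-depleted sites were more frequent. Of the protein-coding genes with a Suz12-depleted site, 14.1% had an H3K27me3-depleted site, with 36.5% on chromosome 11 (181 of 496) and 11.4% on all other chromosomes (469 of 4124). Fewer copies of chromosome 11 in the Pcl3 shRNA cells and less H3K27me3 per copy cannot be told apart in these lists. The site of Gdf6 is on chromosome 4. Among the other 6 genes, the distance from the start to the nearest H3K27me3-depleted site ranged from 149595 bp at Bmp6 to 4658022 bp at Bmp7. Absence from this list does not show that H3K27me3 was the same in both cell populations there, since levels were not in the lists.

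Chrd encodes Chordin, which holds BMPs in an inactive complex until it is cleaved by tolloid proteases. Chrd (ENSMUSG00000006958.7), on the plus strand at chr16:20733200-20742457, had 1 Suz12 site at chr16:20732301-20735050, of 2750 bp with 699 bp of coding sequence, and it was in the depleted list. The same site lies within 5 kb of Thpo, which encodes thrombopoietin. By smallest p-value, Pcl3 ranked last here of the 8 genes, next to Bmp4, and these 2 genes cannot be said to differ. The 2 Pcl3 sites of Chrd were 400 bp wide each, with p-values of 5.160e-08 over the start and 4.255e-09 behind it, and were at ranks 4882 and 4274 of 5242. Together they covered 29.1% of the Suz12 bases.

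Grem1 encodes Gremlin, an antagonist that acts in limb outgrowth and kidney development. Grem1 (ENSMUSG00000074934.3), on the minus strand at chr2:113586321-113598803, has 2 exons and had 1 Suz12 site at chr2:113597151-113599650. This site was 2500 bp wide, with 1497 bp in the intron and 847 bp upstream of the gene, and was in the depleted list. A Pcl3 site of 2750 bp (p-value 1.654e-109) overlapped 94.0% of it. Chrd and Grem1 thus had Suz12 sites of similar width, but the Pcl3 sites of Chrd were among the weakest of their list and that of Grem1 was at rank 558. The 2 Suz12 sites were not alike in strength, with p-values of 3.527e-146 at Chrd and 4.866e-295 at Grem1.

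**Figure D3:**
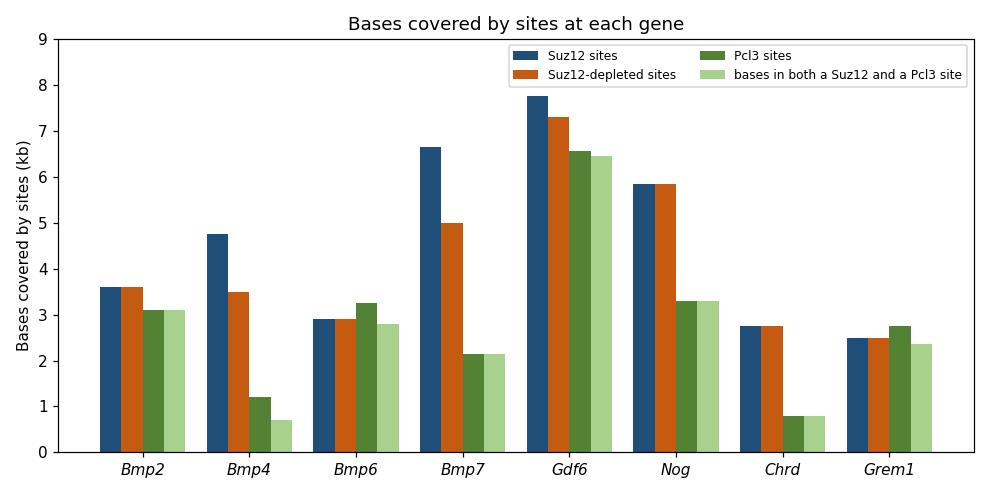
Bases in kb covered by Suz12, Suz12-depleted and Pcl3 sites, and by both Suz12 and Pcl3, in the window of each gene. Gdf6 has the most of each, and Pcl3 is short beside Suz12 at Bmp4, Bmp7 and Chrd.

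The bases covered by Suz12 sites ranged from 2500 bp at Grem1 to 7750 bp at Gdf6, and those covered by Pcl3 from 800 bp at Chrd to 6550 bp at Gdf6. For scale, the 2870 protein-coding genes with a Suz12, a Suz12-depleted and a Pcl3 site had a median of 2500 bp of Suz12 and 1450 bp of Pcl3, and a median of 60.0% of their Suz12 bases in a Pcl3 site. The share was above this median at Bmp6, Grem1, Bmp2 and Gdf6, from 96.6% down to 83.2%. It was below it at Nog (56.4%), Bmp7, Chrd and Bmp4. The ligands and the antagonists were found on both sides. A Pcl3 site covered the start of 7 genes, all but Bmp4. The same count was not made over all protein-coding genes, so whether 7 of 8 is unusual is not known. None of the 14 Pcl3 sites had a p-value written as 0, beside 208 of the 5242 sites in the whole Pcl3 list. Of the 16 Suz12 sites, 5 had one, beside 435 of the 8876 sites in the whole Suz12 list. The Pcl3 and Suz12 lists came from different cells and from libraries of unknown depth. These counts therefore do not compare the strength of Pcl3 with that of Suz12. By Pcl3 p-value the order was Gdf6, Bmp6, Grem1, Bmp2, Bmp7, Nog, Bmp4 and Chrd, with −log10 values of 260, 164, 109, 69.2, 66.2, 44.3, 11.9 and 8.37. The p-value of a site grows smaller with its width, its signal and the depth of the library, so neighbors in this order cannot be said to differ.

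Of the 16 Suz12 sites, 11 were in the depleted list, beside 64.5% of all Suz12 sites, and 11 had a Pcl3 site, beside 44.3%. The sites in the depleted list were wider and stronger than those outside it, except the intronic site of Bmp7, which was narrower and slightly weaker than the site upstream of that gene. They ranged from 850 to 5450 bp with a median of 2900 bp, and 10 of the 11 had a Pcl3 site. This count is set beside the shares of sites of like strength in the next paragraph. The 5 sites outside the list ranged from 450 to 1100 bp with a median of 550 bp, and 1 of the 5 had a Pcl3 site, beside 14.5% of all Suz12 sites outside the depleted list. The widths were ordered in the same direction over the whole list, with medians of 1500 bp in the depleted list and 650 bp outside it.

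The strength of binding moved with depletion over the whole list too. When all 8876 Suz12 sites were divided into 10 equal groups by p-value, 2.48% of the weakest group, 69.1% of the fifth and 100% of the strongest were in the depleted list. The share with a Pcl3 site went from 10.3% in the weakest to 99.7% in the strongest. At the 8 genes, 10 of the 11 depleted sites were in the 3 strongest groups, where at least 99.7% of all sites were depleted. These are the same 10 that had a Pcl3 site. Over all Suz12 sites, 75.9%, 94.8% and 99.7% of these 3 groups had one, so the count at the 8 genes was near that of sites of like strength. The sites outside the depleted list were in groups 1, 1, 2, 4 and 5 counted from the weakest. The share of sites with an H3K27me3-depleted site was 19.4% in the strongest group, and both sites of Gdf6 and Nog that had one were in the strongest 2 groups. The part of site strength in the depletion at these genes was not tested. The paper says that a change in Suz12 may be harder to detect at less significant sites. Absence of a weak site from the depleted list therefore does not show that its Suz12 was kept.

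The fifth group holds the sole close pair, the intronic and the upstream Suz12 site of Bmp7, with near equal p-values and 1 of the 2 in the depleted list. The middle 200 bases of these sites are shown to compare them, together with those of the Gdf6 intronic site and of the Pcl3 site upstream of Bmp4 that had no Suz12. They are read on the plus strand of mm9 with each CpG in capitals, and none of them overlaps an annotated exon.
Bmp7 intron, in the depleted list, chr2:172760876-172761075, plus strand: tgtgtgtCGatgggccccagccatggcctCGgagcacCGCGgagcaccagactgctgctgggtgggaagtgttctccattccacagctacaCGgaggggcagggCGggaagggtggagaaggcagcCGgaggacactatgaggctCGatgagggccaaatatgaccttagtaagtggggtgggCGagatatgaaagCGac
Bmp7 upstream, outside the depleted list, chr2:172767301-172767500, plus strand: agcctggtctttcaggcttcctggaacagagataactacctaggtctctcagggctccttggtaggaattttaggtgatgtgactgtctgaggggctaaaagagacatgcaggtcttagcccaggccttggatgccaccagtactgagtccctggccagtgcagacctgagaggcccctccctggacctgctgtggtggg
Gdf6 intron, outside the depleted list, chr4:9784776-9784975, plus strand: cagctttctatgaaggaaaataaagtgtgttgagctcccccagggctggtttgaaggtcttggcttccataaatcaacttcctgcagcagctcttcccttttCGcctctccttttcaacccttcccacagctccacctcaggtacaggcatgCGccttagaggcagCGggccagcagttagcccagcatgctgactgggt
Bmp4 upstream, Pcl3 site with no Suz12 site, chr14:47013801-47014000, plus strand: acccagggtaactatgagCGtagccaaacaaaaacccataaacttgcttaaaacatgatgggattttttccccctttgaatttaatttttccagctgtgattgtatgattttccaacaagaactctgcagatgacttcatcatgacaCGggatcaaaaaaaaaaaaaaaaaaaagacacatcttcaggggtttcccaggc
The Bmp7 intronic stretch held 10 CpG and the Bmp7 upstream stretch held 0. Over the whole sites, the intronic one had 3.53 CpG per 100 bp and the upstream one 1.45, both below the median of 5.41 over all Suz12 sites. The Gdf6 stretch held 3 CpG and the Bmp4 stretch 2. The whole Pcl3 site upstream of Bmp4 had 0.800 CpG per 100 bp, beside a median of 5.32 over all Pcl3 sites.

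Over the 16 Suz12 sites of the 8 genes, the median was 4.97 CpG per 100 bp. It was 5.06 for the 11 sites in the depleted list and 2.00 for the 5 outside it. The same medians over all Suz12 sites were 5.45 and 5.27, so the gap seen at these genes was not found at that size in the whole list. It was carried by Bmp7 and Gdf6, whose 3 sites outside the depleted list had 1.45, 1.78 and 2.00 CpG per 100 bp. The weak sites of Bmp4 outside the depleted list had 4.93 and 6.60, and the latter was above the 5.43 of the site over the Bmp4 start. Of the 8 Suz12 sites over a start, taken over their whole width, those of Bmp6 (7.10), Nog (6.93) and Bmp2 (6.81) had the most CpG per 100 bp and that of Gdf6 (3.89), the widest, had the fewest. This order differs from that of the 200 bases upstream, where Bmp6 had the fewest CpG.

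**Figure D4:**
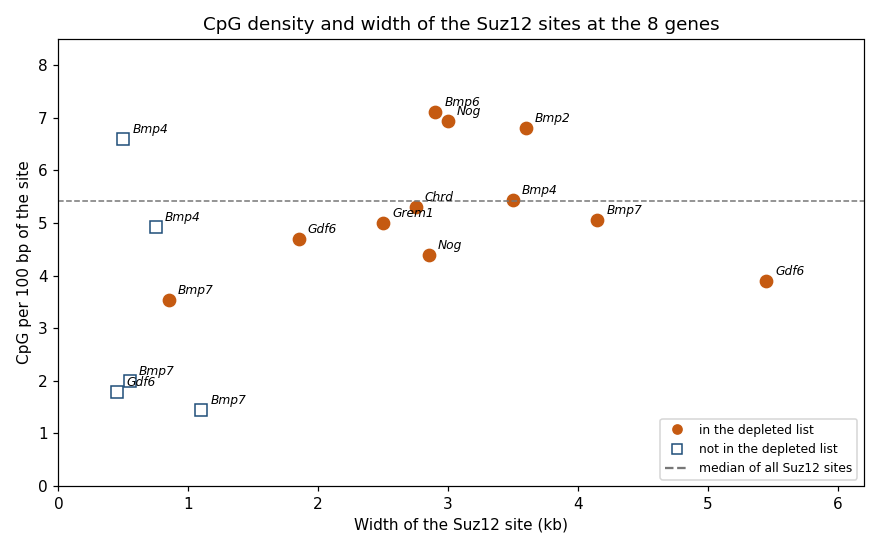
CpG per 100 bp against the width in kb of each of the 16 Suz12 sites, with filled circles for sites in the depleted list, open squares for sites outside it and a dashed line at the median of all Suz12 sites (5.41). The 5 squares are all at most 1.1 kb wide and spread from 1.45 to 6.60 CpG per 100 bp.

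GCGCGC was present in 81.8% of the 11 depleted sites and in 0 of the 5 others, beside 63.5% and 32.6% over all Suz12 sites. It was found at 11 positions in the site over the Bmp4 start, 7 in that of Bmp6 and 5 each in those of Bmp2 and Bmp7. The Chrd site, 2750 bp wide and in the depleted list, held none, and neither did the depleted intronic site of Bmp7. Wider sites have more room for any word, and width was not held equal in these shares. The shorter GCGC was present in 93.8% of the 16 sites and in 95.2% of all Suz12 sites.

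The rest of the pathway was read from 5 lists of genes by role. For each, the shares of all protein-coding genes to set beside it are 28.8% for Suz12 and 20.6% for Suz12-depleted sites. They are 14.7% for Pcl3 and 3.13% for H3K27me3-depleted sites. Of 15 other BMP and GDF ligands, 7 had a Suz12 site (46.7%), the same number had a Suz12-depleted site, 2 had a Pcl3 site (13.3%) and none had an H3K27me3-depleted site. The strongest were Gdf7, a ligand of the dorsal spinal cord, with a Suz12 site of 5450 bp (p written as 0) and a Pcl3 site (p-value 8.527e-78), and Bmp3, an atypical ligand that opposes other BMPs, with a Suz12 site of 1800 bp (p-value 6.258e-123) and no Pcl3 site. The 8 without a Suz12 site were Bmp5, Bmp10, Bmp15, Gdf2, Gdf3, Gdf5, Gdf9 and Mstn, which include Bmp5, a close relative of Bmp6 and Bmp7, and Gdf5, a close relative of Gdf6. The share with a Pcl3 site was thus near the 14.7% of all protein-coding genes for these ligands.

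Of 17 other extracellular antagonists and modulators, 13 had a Suz12 site (76.5%), 9 a Suz12-depleted site (52.9%), 8 a Pcl3 site (47.1%) and 2 an H3K27me3-depleted site (11.8%). The strongest Suz12 sites were at Nbl1, a Dan family antagonist (p-value 7.882e-194), and Bmper, which binds BMPs in vessels (p-value 3.584e-188). The H3K27me3-depleted sites were at Sost, the bone protein sclerostin (p-value 9.478e-08), and Bmp1 (p-value 4.461e-08). Bmp1 is not a ligand but a tolloid protease that cleaves Chordin. Sost is on chromosome 11, as is Nog.

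Of 12 receptors and co-receptors, 10 had a Suz12 site (83.3%), 8 a Suz12-depleted site (66.7%), 4 a Pcl3 site (33.3%) and none an H3K27me3-depleted site. The strongest were the co-receptors Rgma, with 5 Suz12 sites that were all in the depleted list (smallest p-value 1.013e-169) and 8 Pcl3 sites, and Rgmb (p-value 2.688e-88). Bmpr1a, a type I receptor, and Eng had no Suz12 site. Of 8 Smads and Smad ubiquitin ligases, 3 had a Suz12 site (37.5%), the same 3 a depleted one, 2 a Pcl3 site (25.0%) and none an H3K27me3-depleted site. The strongest were the inhibitory Smad6 (p-value 1.904e-240) and the signal-carrying Smad9 (p-value 1.456e-50). The signal-carrying Smad1 and Smad5, the shared partner Smad4, and Smurf1 and Smurf2 had no Suz12 site. With 8 genes, the shares of the Smad list cannot be said to differ from those of all protein-coding genes.

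All 8 target genes examined had a Suz12 site, 7 had a Suz12-depleted site (87.5%), 7 a Pcl3 site and 1 an H3K27me3-depleted site (12.5%). Dlx5 and Msx1, homeobox genes of the skull and teeth, had Suz12 sites of 5200 and 4750 bp with p-values written as 0. Msx2, their relative, had 6 Suz12 sites, of which 4 were in the depleted list, and 2 H3K27me3-depleted sites with a smallest p-value of 2.353e-09. The target without a depleted site was Id1, a main target of BMP signaling in ESCs, and its Suz12 site (p-value 2.206e-20) was weak. Id1 was named after its values were seen.

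**Figure D5:**
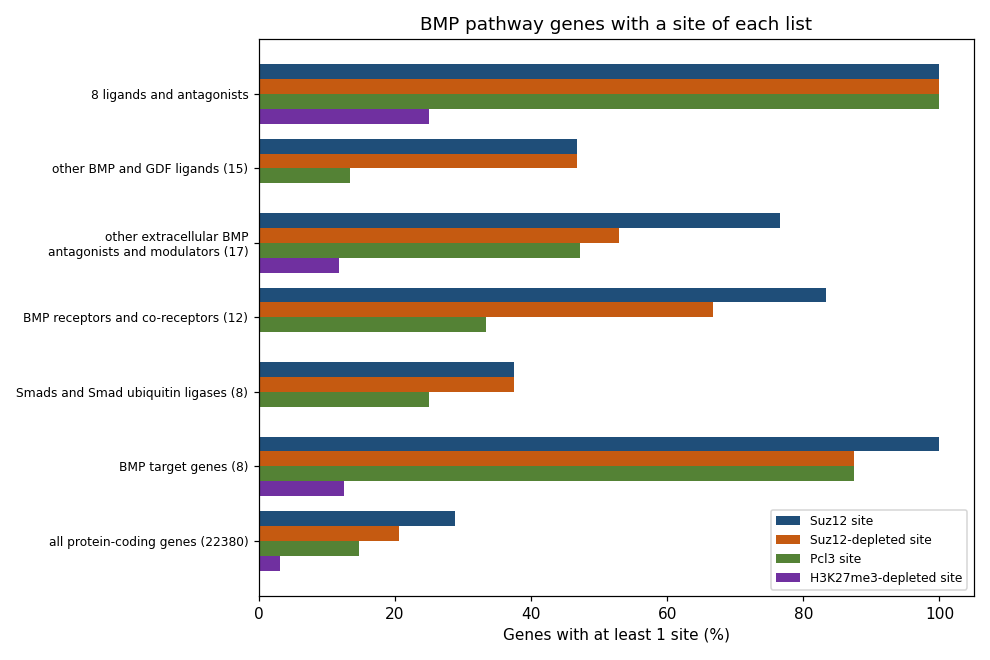
Percent of genes with at least 1 site of each list, for the 8 ligands and antagonists, 5 other lists of BMP pathway genes (number of genes in parentheses) and all protein-coding genes. The 8 ligands and antagonists are at 100% in 3 lists, the target genes at 87.5% or more in the same lists and the Smads at 37.5% or less. Genes and lists were chosen with earlier results of these data known.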

How the data were processed

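Per the labels and the methods of the study, the authors used Bowtie and mm9, retained reads with a unique alignment, scaled paired libraries to equal background and called sites with the Skellam distribution. They deposited 4 site lists with 1 p-value per site, which is the sole measured value used. Unique alignment leaves out repeated sequence, and equal scaling assumes a like background on every chromosome. Very small p-values are written as 0 and were tied. No counts are in the lists, so the precision of a single site is unknown. Whether the 2 Pcl3-TAP libraries were pooled is not given in the sources used here.

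Overlaps of at least 1 base with each gene plus 5 kb were counted, beside the same over all protein-coding genes of GENCODE vM1. Coordinates are 1-based in mm9 and sequence was read from that build. Overlap functions were tested on simulated data. The named genes are the 8 genes, each pathway gene with an H3K27me3-depleted site and the 2 of each list with the smallest Suz12 p-value (the widest where tied), plus genes listed as lacking a site. Genes and lists were chosen with earlier results of these data known. Alternatives were other windows, centers in place of shared bases, stricter p-values and chromosome 11 left out. No test was run, since each condition had 1 library. The symbol Smad8, an older name of Smad9, was not found in the annotation. Python 3.11.15, numpy 2.4.6, scipy 1.17.1 and matplotlib 3.10.9 were used.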

Additional observations from a re-analysis of the deposited data

How the results depend on the processing

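Counts over the 8 genes were recomputed with other windows, overlap rules and p-value thresholds and without chromosome 11. Of the recomputed counts over the 8 genes, 42 stayed within 1.5 times the reported count and 4 did not. These 4 belong to the genes with an H3K27me3-depleted site, reported as 2. This count was 1 (Nog) within 5 kb of the start, since the site of Gdf6 lies 15582 bp downstream of the start, and 1 (Gdf6) without chromosome 11, where Nog lies. It was 0 at p-values of at most 1e-10 and 0 at 1e-12, since neither site reaches them. The p-values of the Suz12-depleted list are those of binding, and were 1.148e-139 or smaller at the start of each gene. These thresholds therefore could not change its count of 8 genes. Leaving out chromosome 11 takes Nog alone out of the counts of genes. Pcl3 sites were found at 7 genes at 1e-10 (not Chrd) and at 6 at 1e-12 (not Bmp4 or Chrd). With 10 kb on each side, 1 further Suz12 site was included, 7257 bp upstream of Bmp4 (chr14:47017601-47018600, p-value 1.154e-28), which was outside the depleted list. The shares given for comparison moved as well. Protein-coding genes with a Suz12 site (28.8%) ranged from 23.6% at 1e-12 to 32.0% with 10 kb on each side. At 1e-12, genes with an H3K27me3-depleted site went from 3.13% to 0.630%. Of the 6696 Suz12 sites that reach 1e-12, 82.4% were in the depleted list, beside 64.5% of all 8876 Suz12 sites. The stricter threshold leaves out the weak sites, which were less often in that list. No paired analysis was possible because each condition had 1 library, and for the same reason no replicate could be left out. The lists give no depth.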
